A study of Mus musculus with 2 samples.

Results

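Follistatin, 2 activin subunits, the 3 TGF-beta ligands, 2 bone morphogenetic proteins (BMPs) and the inhibitory SMAD that this pathway induces were followed through the tumor cells of 2 mice. The members are 9 of the 32285 genes counted, taken by symbol: Fst, Inhba, Inhbb, Tgfb1, Tgfb2, Tgfb3, Bmp4, Bmp7 and Smad7. All 9 had UMIs in both mice, and all 9 passed the filter on low counts in each of the 4 comparisons below. A UMI (unique molecular identifier) marks 1 captured transcript, and levels are given as UMIs of a gene per 1000000 UMIs (CPM) in the summed cells of 1 mouse and 1 cluster.

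The mice carried MMTV-PyMT, Krt8-CreERT and Rosa26-mTmG together, so that polyoma middle T drove luminal mammary tumors and tamoxifen switched cells that express the luminal keratin Krt8, with their descendants, to green fluorescent protein (GFP). There was 1 group of 2 mice, without an untreated or tumor-free control. Tamoxifen was given at 150 mg/kg over weeks 5 and 6 (6 days in all), tumors were harvested at 1.5 cm3, and live GFP-positive cells negative for the endothelial protein CD31 and the leukocyte protein CD45 were sorted. The sort therefore holds the offspring of cells that had expressed Krt8, and any other cell that was GFP-positive, and tumor cells that were never labelled are outside these data. The study's annotation places the cells in 18 clusters, numbered 0 to 17. Cluster 6 is the lumino-basal cluster of the study and cluster 13 is the mature luminal cluster. Clusters 15 and 16 are those that the study describes as high in basal score. The "other tumor cells" here are all annotated cells outside clusters 6 and 13 (and outside 15 where cluster 15 is compared), so they include cluster 16.

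Ligands of the TGF-beta superfamily are secreted dimers that bring type I and type II receptor kinases together at the cell surface. TGF-betas and activins act mainly through SMAD2 and SMAD3, and BMPs through SMAD1, SMAD5 and SMAD9, each with SMAD4. Activin A is a dimer of inhibin beta A chains, encoded by Inhba, and activin B of inhibin beta B chains, encoded by Inhbb. Follistatin, encoded by Fst, is a secreted protein that binds activins almost irreversibly and some BMPs more weakly. TGF-betas are secreted in a latent complex and need to be released from it. In the mammary gland, TGF-beta restrains ductal growth, and in carcinoma cells it can induce epithelial-mesenchymal transition. SMAD7 is induced by the pathway and blocks its type I receptors.

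In GENCODE vM21 on GRCm38, the build of the counts, chromosome 13 holds Fst (ENSMUSG00000021765) at 114452290 to 114458951 on the minus strand and Inhba (ENSMUSG00000041324) at 16011851 to 16031621 on the plus strand. Chromosome 1 holds Inhbb (ENSMUSG00000037035) at 119415465 to 119422248 on the minus strand and Tgfb2 (ENSMUSG00000039239) at 186622792 to 186705989 on the minus strand. Tgfb1 is on chromosome 7, Tgfb3 on chromosome 12, Bmp4 on chromosome 14 and Bmp7 on chromosome 2. No member overlaps another counted gene on its own strand. The libraries read the 3' end of transcripts, so a level counts transcripts of the whole gene and does not separate isoforms.

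The promoters of the 2 activin subunits are shown because Inhba was higher and Inhbb lower in cluster 6 than in cluster 13. Promoters were matched in RefSeq (build GRCm38.p6) for 5 of the 9 members, and each runs from 250 bases before to 50 bases after the start of the gene. TATAAA, the core letters of a TATA box, is in capitals wherever it stood in the window. The Inhba promoter is at chr13:16011601-16011900 on the plus strand, and the Inhbb promoter is at chr1:119422199-119422498 on the minus strand.
Inhba: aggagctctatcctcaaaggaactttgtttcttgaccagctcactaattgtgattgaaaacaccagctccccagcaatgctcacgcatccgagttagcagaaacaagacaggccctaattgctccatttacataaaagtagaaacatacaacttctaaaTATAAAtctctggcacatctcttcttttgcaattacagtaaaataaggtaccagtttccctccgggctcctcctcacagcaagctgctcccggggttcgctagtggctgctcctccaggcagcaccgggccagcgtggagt
Inhbb: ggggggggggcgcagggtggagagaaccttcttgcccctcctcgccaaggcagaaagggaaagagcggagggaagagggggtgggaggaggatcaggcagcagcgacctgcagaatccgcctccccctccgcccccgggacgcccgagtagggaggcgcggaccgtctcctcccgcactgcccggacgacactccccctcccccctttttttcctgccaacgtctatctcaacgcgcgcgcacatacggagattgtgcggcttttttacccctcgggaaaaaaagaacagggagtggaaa
The Inhba promoter held 1 TATAAA, starting at base 160 of the window, and had a GC content of 47.7%, whereas the Inhbb promoter held none and had a GC content of 64.3%. Searched on both strands, TATAAA stood in 13.6% of the 32851 mouse promoters of this length. Of the other 3 promoters matched, that of Tgfb2 held 1 TATAAA (GC content 54.3%), and those of Tgfb1 (77%) and Bmp4 (64%) held none. CAGAC, the longer form of the SMAD-binding letters, stood at bases 30 and 47 of the Tgfb2 window and in 49.6% of all promoters. GTCTAGAC (0.213% of all promoters), TGANTCA (7.81%), AACAAT (10.7%) and GGCGCC (11.9%) were in none of these 5 windows. These matches describe letters in a window and were not tested against expression.

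Annotated cells numbered 3829 in mouse 1 and 5330 in mouse 2, of which 260 and 167 were in cluster 6, 191 and 17 in cluster 15, and 73 and 192 in cluster 13. The UMIs of mouse 1 and mouse 2 came to 3410589 and 1590251 for cluster 6, 4257411 and 294706 for cluster 15, and 1219562 and 2417170 for cluster 13, against 53999755 and 52965223 in the other tumor cells. The 10 basal and myoepithelial markers summed to 4615 and 4510 CPM in cluster 6, 452 and 2341 CPM in cluster 15, and 45.1 and 77.4 CPM in cluster 13, against 98.0 and 110 CPM in the other tumor cells. Krt5 was at 0 in cluster 15 of both mice. The 7 mature luminal markers summed to 3773 and 5367 CPM in cluster 13, against 1048 and 445 CPM in the other tumor cells. Genes of another lineage were also present in cluster 6: the 13 fibroblast markers summed to 1633 and 3377 CPM, against 5.61 and 5.21 CPM in the other tumor cells, with no marker at 0 in cluster 6. In cluster 13 they summed to 39.4 and 324 CPM, of which Dcn made up 26.2 and 231 CPM. Cells with UMIs of at least 3 genes of the fibroblast, endothelial, pericyte, macrophage or T and NK cell list (called stromal-marker cells below) were 44 of 260 (16.9%) and 46 of 167 (27.5%) cells of cluster 6, against 0.572% and 0.563% of the other tumor cells, and each result on cluster 6 was repeated without them. Mouse 1 and mouse 2 shared 9 annotated cell barcodes, none of them in cluster 6.

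Fst was the member most concentrated in cluster 6. Its level there was 686 CPM in mouse 1 and 801 CPM in mouse 2, and 78.2% and 83.4% of all Fst UMIs in annotated cells lay in this cluster. In cluster 15, the next in order, the levels were 40.2 and 78.0 CPM. The 2 mice's ranges did not overlap between these neighbours, nor between cluster 15 and cluster 3, the third in order (27.4 and 4.65 CPM). Below cluster 15 no order could be read, since every further pair of neighbours overlapped. Over the 15 clusters other than 6, 13 and 15, the lowest, median and highest levels were 0, 4.59 and 27.4 CPM in mouse 1 and 0, 1.99 and 25.3 CPM in mouse 2. In cluster 13, Fst had 1 UMI in mouse 1 and 0 in mouse 2. Because of that single UMI, the difference is given as a ratio of counts: 3615 UMIs in cluster 6 against 1 in cluster 13, scaled for depth, is a ratio of 2629 with an exact counting interval of 472 to 103865.

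The test used throughout asks for a difference over both mice. Its estimate of spread is in part shared over genes, so a low p does not show that the mice agree in size. It is edgeR's quasi-likelihood test on the sums, blocked by mouse, with p adjusted by Benjamini and Hochberg's method over all genes tested, and a result is called where the adjusted p is below 0.05. The clusters were drawn from these same expression values, so the test does not ask whether the clusters differ at all. Fst was higher in cluster 6 than in cluster 13 (edgeR adjusted p = 8.62e-19) and than in the other tumor cells, which had 12.04 and 4.80 CPM, by 6.56 ± 0.37 on the log2 scale (SE, n = 2 mice; edgeR adjusted p = 9.53e-06), a 94.1-fold difference. It was also lower in cluster 13 than in the other tumor cells, with 1 UMI against 904 and a ratio of 0.0325 (counting interval 0.000823 to 0.182; edgeR adjusted p = 3.38e-04). In cluster 15 it was higher by 2.88 ± 0.35 (edgeR adjusted p = 4.68e-14), which became adjusted p = 0.0599 in edgeR without the block. The difference between cluster 6 and the other tumor cells held when each of the 4 sums was left out (edgeR adjusted p 0.00186 to 0.00701). The difference with cluster 13 did not pass without the cluster 6 sum of mouse 2 (edgeR adjusted p = 0.0646), a fit in which none of 9794 genes passed and 3053 had an unadjusted p below 0.05. The fall in cluster 13 against the other tumor cells was not called with each of the 4 sums left out in turn (edgeR adjusted p 0.0737 to 0.231), and thinning cells to 2000 UMIs gave adjusted p = 0.161. The rise in cluster 15 was not called without its own sum of mouse 1 (adjusted p = 0.0631) or of mouse 2 (adjusted p = 0.245).

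**Figure D1:**
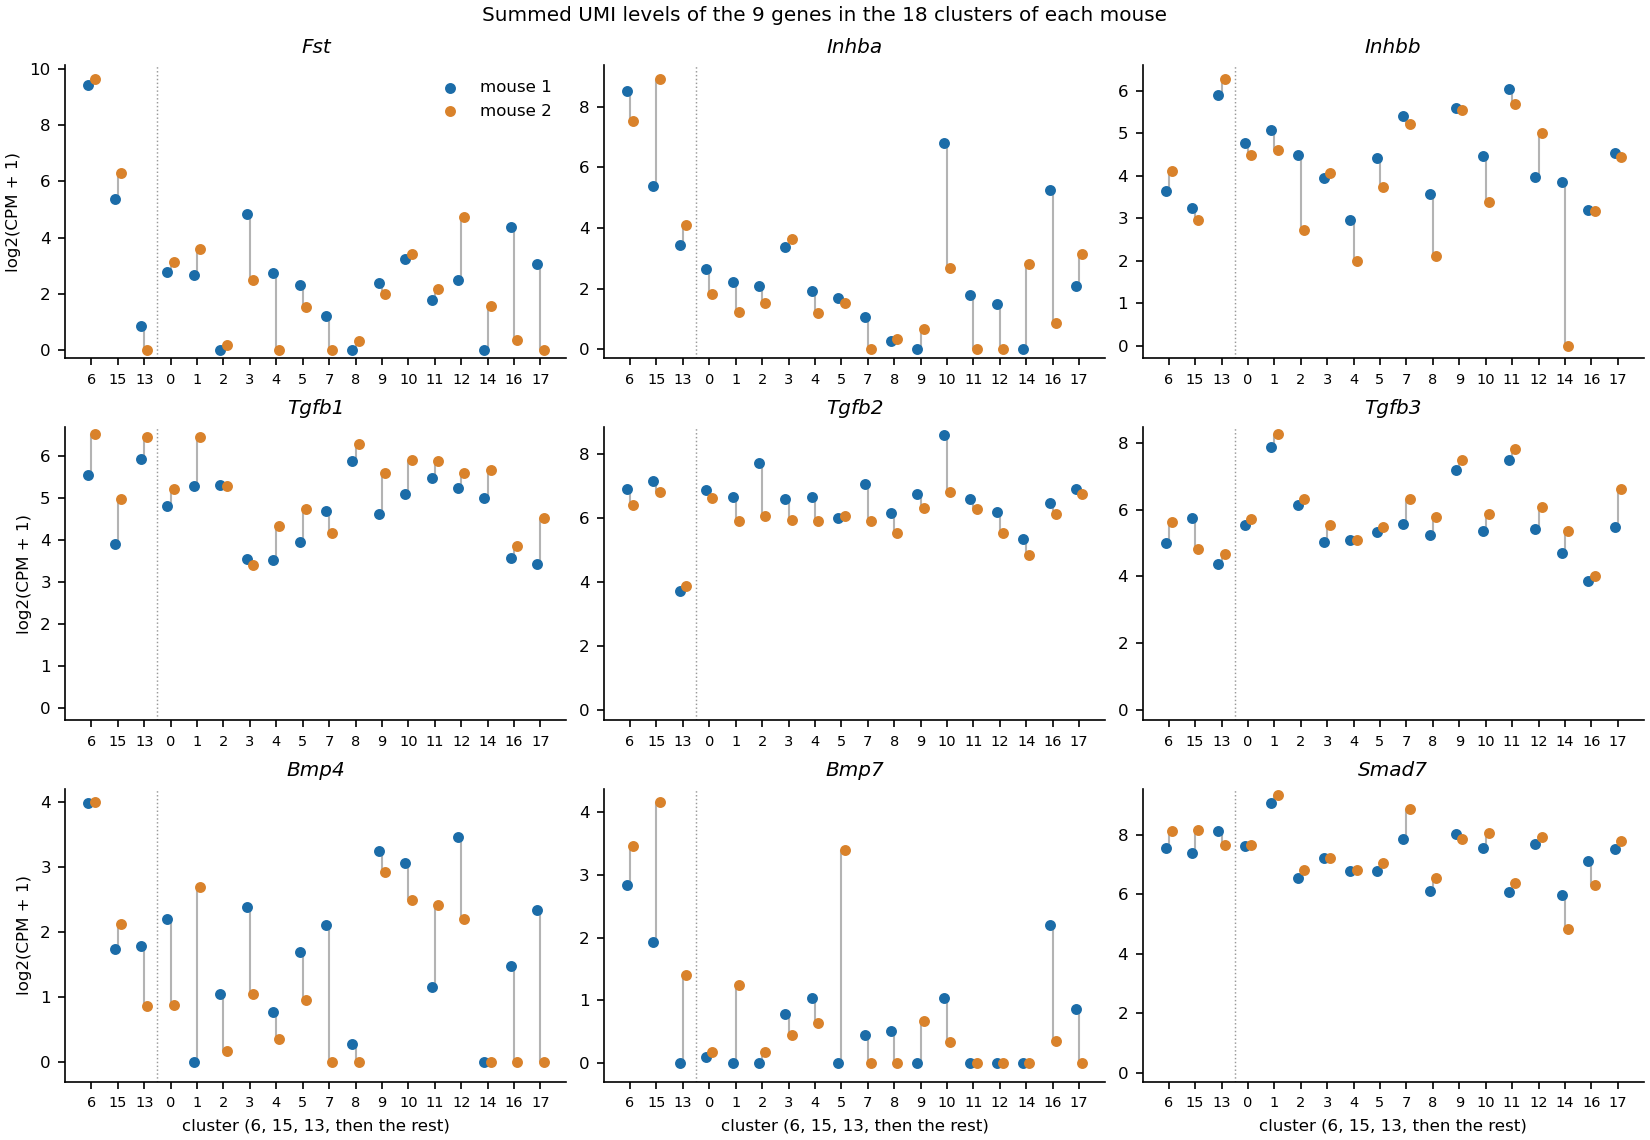
Level of each member in every cluster, as log2(CPM + 1) of the summed UMIs, with 1 panel per gene, the 18 clusters along the x axis (cluster 6, 15 and 13 first) and 1 point per mouse. Fst stands at 686 and 801 CPM in cluster 6 and at or below 78.0 CPM in every other cluster, and Tgfb2 is at its lowest in cluster 13.

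Inhba, the subunit of activin A, was high in clusters 6 and 15 and low in most of the tumor. The levels were 363 and 184 CPM in cluster 6 and 40.9 and 485 CPM in cluster 15, so the 2 clusters overlapped. Cluster 10 followed with 112 and 5.39 CPM and cluster 16 with 37.0 and 0.824 CPM, both high in mouse 1 only. Cluster 13 had 9.84 and 16.1 CPM. Over the 15 clusters other than 6, 13 and 15, the median was 2.82 CPM in mouse 1 and 1.37 CPM in mouse 2. Cluster 6 held 69.2% of the Inhba UMIs of mouse 1 and 48.2% of those of mouse 2.

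Inhba was higher in cluster 6 than in cluster 13 by 4.11 ± 0.33 on the log2 scale (SE, n = 2 mice; edgeR adjusted p = 5.74e-12), a 17.3-fold difference, and than in the other tumor cells (9.98 and 5.19 CPM) by 5.13 ± 0.19 (edgeR adjusted p = 7.40e-07), a 35.0-fold difference. The second of these held with each of the 4 sums left out in turn (edgeR adjusted p 0.00458 to 0.0137), and the first did not pass without the cluster 6 sum of mouse 2 (adjusted p = 0.0646). Cluster 13 itself was not called against the other tumor cells (1.05 ± 0.38, edgeR adjusted p = 0.0525). Cluster 15 stood at 40.9 and 485 CPM against 7.34 and 2.51 CPM in the other tumor cells, so the mice differed widely in the size of the rise. The fitted difference was 4.93 ± 0.33 (edgeR adjusted p = 3.05e-46), which rests on 17 cells in mouse 2 and whose SE does not measure that spread. It was not called by DESeq2 (4.99, adjusted p = 0.0957), by edgeR without the block (5.55, adjusted p = 0.0786) or by edgeR without the cluster 15 sum of mouse 2 (3.02, adjusted p = 0.257).

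Inhbb, the subunit of activin B, had a different order. It was highest in cluster 13, with 59.0 and 76.9 CPM, which overlapped with cluster 11 at 64.7 and 50.3 CPM. Clusters 9 (47.0 and 45.5 CPM) and 7 (41.7 and 36.01 CPM) came next, each without overlap with its neighbours. Cluster 6 had 11.4 and 16.3 CPM, rank 12 of 18 by the mean of the mice (rank 14 in mouse 1 and 9 in mouse 2), and cluster 15 had 8.46 and 6.79 CPM, rank 15. The lowest by the mean of the mice was cluster 4 (6.71 and 2.96 CPM). Inhbb was lower in cluster 6 than in cluster 13, with a log2 difference of -2.39 ± 0.33 (SE, n = 2 mice; edgeR adjusted p = 4.02e-07), and the call was lost only without the cluster 6 sum of mouse 2 (adjusted p = 0.0739) among the alternatives run. Against the other tumor cells (21.5 and 14.7 CPM), cluster 13 was higher by 2.05 ± 0.25 (edgeR adjusted p = 3.22e-06), not called without its own sum of mouse 2 (adjusted p = 0.056) or the other cells' sum of mouse 2 (adjusted p = 0.069). Cluster 6 was not called against the other tumor cells (-0.45 ± 0.30, edgeR adjusted p = 0.347). Without the stromal-marker cells, however, Inhbb in cluster 6 was at 7.25 and 1.70 CPM, and the difference from the other tumor cells was -1.89 ± 0.36 (edgeR adjusted p = 5.55e-04). In mouse 2, 21 of the 26 Inhbb UMIs of cluster 6 lay in the 13 cells with endothelial markers. Cluster 15 was lower than the other tumor cells, with a log2 difference of -1.40 ± 0.48 (edgeR adjusted p = 0.0449), a call that DESeq2 (adjusted p = 0.533), edgeR without a filter on low counts (adjusted p = 0.0501), without the block (adjusted p = 0.263), with thinned cells (adjusted p = 0.830) and with each of the 4 sums left out in turn (adjusted p 0.390 to 0.853) did not make.

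The TGF-beta ligands differed from each other in where they were high. Tgfb2 was the ligand that separated cluster 13 from the rest of the tumor, at 12.3 and 13.7 CPM. The next lowest was cluster 14, at 40.0 and 27.9 CPM, without overlap. Over the 15 clusters other than 6, 13 and 15, the lowest, median and highest levels of Tgfb2 were 40.0, 98.8 and 385 CPM in mouse 1 and 27.9, 65.7 and 111 CPM in mouse 2. The highest of these was cluster 10 in both mice. Cluster 6 had 119 and 84.3 CPM, within this range. Cluster 15 had 140 and 112 CPM, within the range in mouse 1 and just above it in mouse 2, where the level rests on 33 UMIs (counting interval 77.1 to 157 CPM). Tgfb2 was lower in cluster 13 than in the other tumor cells (112 and 76.3 CPM), with a log2 difference of -2.68 ± 0.25 (SE, n = 2 mice; edgeR adjusted p = 7.57e-08), and this held with each of the 4 sums left out in turn (adjusted p 0.0195 to 0.0376). It was higher in cluster 6 than in cluster 13 by 2.81 ± 0.33 (edgeR adjusted p = 2.04e-08), not called without the cluster 6 sum of mouse 2 (adjusted p = 0.0646). No difference between cluster 6 and the other tumor cells was detected (0.08 ± 0.16, edgeR adjusted p = 0.767), and its sign turned without the stromal-marker cells (-0.28).

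Tgfb1 was highest in clusters 13 (59.9 and 87.3 CPM), 6 (46.0 and 92.4 CPM) and 8 (58.2 and 77.9 CPM), which overlapped. It was lowest in cluster 3, at 10.7 and 9.65 CPM, and every pair of neighbours in the order overlapped except the lowest pair. Mouse 2 was the higher mouse in cluster 6, in cluster 13, in cluster 15 (14.1 and 30.5 CPM) and in the other tumor cells (23.9 and 37.2 CPM). Tgfb1 was higher than in the other tumor cells in cluster 6, by 1.09 ± 0.18 on the log2 scale (SE, n = 2 mice; edgeR adjusted p = 0.00314), and in cluster 13, by 1.38 ± 0.21 (edgeR adjusted p = 3.63e-05). In cluster 6 the call was lost without the block (adjusted p = 0.171) and with each of the 4 sums left out in turn (adjusted p 0.0631 to 0.472). In cluster 13 it was kept without the cluster 13 sum of mouse 1 (adjusted p = 0.0461) and lost without each of the other 3 sums (adjusted p 0.0836 to 0.170). Clusters 6 and 13 were not called against each other (-0.23 ± 0.28, edgeR adjusted p = 0.593). In mouse 2, the 13 cells with endothelial markers held 50 of the 147 Tgfb1 UMIs of cluster 6, a level of 421 CPM, and without the stromal-marker cells cluster 6 was at 40.6 and 65.4 CPM and still above the other tumor cells by 0.79 ± 0.21 (edgeR adjusted p = 0.0112).

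Tgfb3 had its highest levels outside the clusters that the study compared. Cluster 1 had 231 and 304 CPM, cluster 11 had 180 and 225 CPM and cluster 9 had 145 and 180 CPM, in that order in both mice. The 3 clusters did not overlap with the neighbours below them, and cluster 2 followed at 69.0 and 78.2 CPM. Cluster 1 was also the shallowest, with a median of 1258 and 1009 UMIs per cell, and the nuclear transcript Malat1 was at 71950 and 70798 CPM in it, against 14048 and 23676 CPM over all annotated cells. The part of this in the Tgfb3 level was not tested. Tgfb3 was at 30.8 and 48.4 CPM in cluster 6, 53.1 and 27.1 CPM in cluster 15 and 19.7 and 24.4 CPM in cluster 13, the second lowest in the order above cluster 16 (13.5 and 15.1 CPM). Cluster 13 was lower than the other tumor cells (47.5 and 63.2 CPM), with a log2 difference of -1.22 ± 0.24 (SE, n = 2 mice; edgeR adjusted p = 6.02e-04), a call lost with each of the 4 sums left out in turn (adjusted p 0.0630 to 0.127) and with cells thinned to 2000 UMIs (adjusted p = 0.103). Cluster 6 was not called against the other tumor cells (-0.54 ± 0.18, edgeR adjusted p = 0.0663), but was called lower with no filter on low counts (-0.62, adjusted p = 0.0219) and with thinned cells (-1.04, adjusted p = 0.0108).

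The 2 BMPs were sparse. Bmp4, a ligand of limb, mesoderm and mammary bud development, had 230 UMIs in the annotated cells of mouse 1 and 90 in those of mouse 2, and Bmp7, a ligand required in kidney development, had 55 and 47. Bmp4 was highest in cluster 6, at 14.95 and 15.09 CPM, without overlap with the next cluster, cluster 9 (8.55 and 6.58 CPM). In cluster 13 it had 2.46 and 0.827 CPM. Against the other tumor cells (3.26 and 1.21 CPM) it was higher in cluster 6 by 2.81 ± 0.42 on the log2 scale (SE, n = 2 mice; edgeR adjusted p = 0.00226), kept only without the other cells' sum of mouse 1 (adjusted p = 0.0246) and otherwise lost without 1 of the sums (adjusted p 0.0634 to 0.109). Against cluster 13 the 75 UMIs of cluster 6 stood to 5, which scaled for depth is 10.9-fold (counting interval 4.47 to 34.6; edgeR adjusted p = 1.10e-04), which DESeq2 did not call (adjusted p = 0.143), nor edgeR without the cluster 6 sum of mouse 1 (adjusted p = 0.0852) or of mouse 2 (adjusted p = 0.103). The 5 cells with most Bmp4 held 58.8% and 58.3% of its UMIs in cluster 6, so a few cells set this level.

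Bmp7 was at 6.16 and 10.1 CPM in cluster 6 and at 2.82 and 16.97 CPM in cluster 15, which overlapped, and at 0 and 1.65 CPM in cluster 13. In the other tumor cells it was at 0.63 and 0.51 CPM, and 7 and 6 of the 15 clusters other than 6, 13 and 15 had 0 UMIs. It was higher in cluster 6 than in the other tumor cells by 3.73 ± 0.59 on the log2 scale (SE, n = 2 mice; edgeR adjusted p = 0.00281), not called without the other cells' sum of mouse 1 (adjusted p = 0.0632) or mouse 2 (adjusted p = 0.0597). Against cluster 13 the counts were 37 UMIs and 4 UMIs, which scaled for depth is 6.73-fold (counting interval 2.42 to 25.98; edgeR adjusted p = 0.00360), which DESeq2 did not call (adjusted p = 0.383), nor edgeR with each of the 4 sums left out in turn (adjusted p 0.0576 to 0.235). In cluster 15, 17 UMIs pooled over both mice gave a ratio of 8.69 to the other tumor cells (counting interval 4.66 to 15.5). The pool holds 4257411 UMIs of mouse 1 and 294706 of mouse 2, so it mostly reflects mouse 1. By mouse the levels were 2.82 and 16.97 CPM, against 0.442 and 0.418 CPM in the other tumor cells outside cluster 15. The fit blocked by mouse gave 3.78 ± 1.11 on the log2 scale (edgeR adjusted p = 0.0110). It was not called without the block (edgeR adjusted p = 0.125). With each of the 4 sums left out in turn the call was lost too, at log2 differences of 2.68 to 5.22.

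Smad7, the intracellular inhibitor, was found in every cluster. Its highest level was in cluster 1, at 532 and 640 CPM, which overlapped with none, and its lowest in cluster 14, at 62.3 and 27.9 CPM. Cluster 6 had 189 and 276 CPM, cluster 15 had 166 and 285 CPM and cluster 13 had 280 and 201 CPM, against 167 and 170 CPM in the other tumor cells. Clusters 6, 15 and 13 overlapped with each other. Smad7 was not called in cluster 6 against cluster 13 (-0.15 ± 0.25, SE, n = 2 mice; edgeR adjusted p = 0.727) or against the other tumor cells (0.40 ± 0.17, edgeR adjusted p = 0.156). It was called higher in cluster 13 than in the other tumor cells by 0.59 ± 0.18 (edgeR adjusted p = 0.0220), and lost by DESeq2 (adjusted p = 0.0778), without the block (adjusted p = 0.115), with thinned cells (adjusted p = 0.284) and with each of the 4 sums left out in turn (adjusted p 0.130 to 0.459). In cluster 1 the Malat1 level and the depth given for Tgfb3 apply here too.

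Counted over the members, cluster 6 against cluster 13 gave 5 members higher (Fst, Inhba, Tgfb2, Bmp4 and Bmp7) and 1 lower (Inhbb), where 28.4% of 9794 genes were called, 16.3% higher and 12.1% lower. The median log2 difference of the 9 members was 2.81 and that of all genes 0.01. Cluster 6 against the other tumor cells gave 5 members higher (Fst, Inhba, Tgfb1, Bmp4 and Bmp7) and 0 lower, where 18.8% of 14350 genes were called, 12.1% higher and 6.63% lower, with a median of 1.09 over the members and -0.06 over all genes. Cluster 13 against the other tumor cells gave 3 higher (Inhbb, Tgfb1 and Smad7) and 3 lower (Fst, Tgfb2 and Tgfb3), where 22% of 13964 genes were called, 11% in each direction. Cluster 15 against the other tumor cells gave 3 higher (Fst, Inhba and Bmp7) and 1 lower (Inhbb), where 7.58% of 13707 genes were called, 3.84% higher and 3.74% lower. These comparisons share sums, so they are not independent of each other. Of the 36 results, 21 were called; all 21 kept their direction, and 3 their call, when each sum was left out in turn: Fst and Inhba in cluster 6 and Tgfb2 in cluster 13, each against the other tumor cells.

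**Figure D2:**
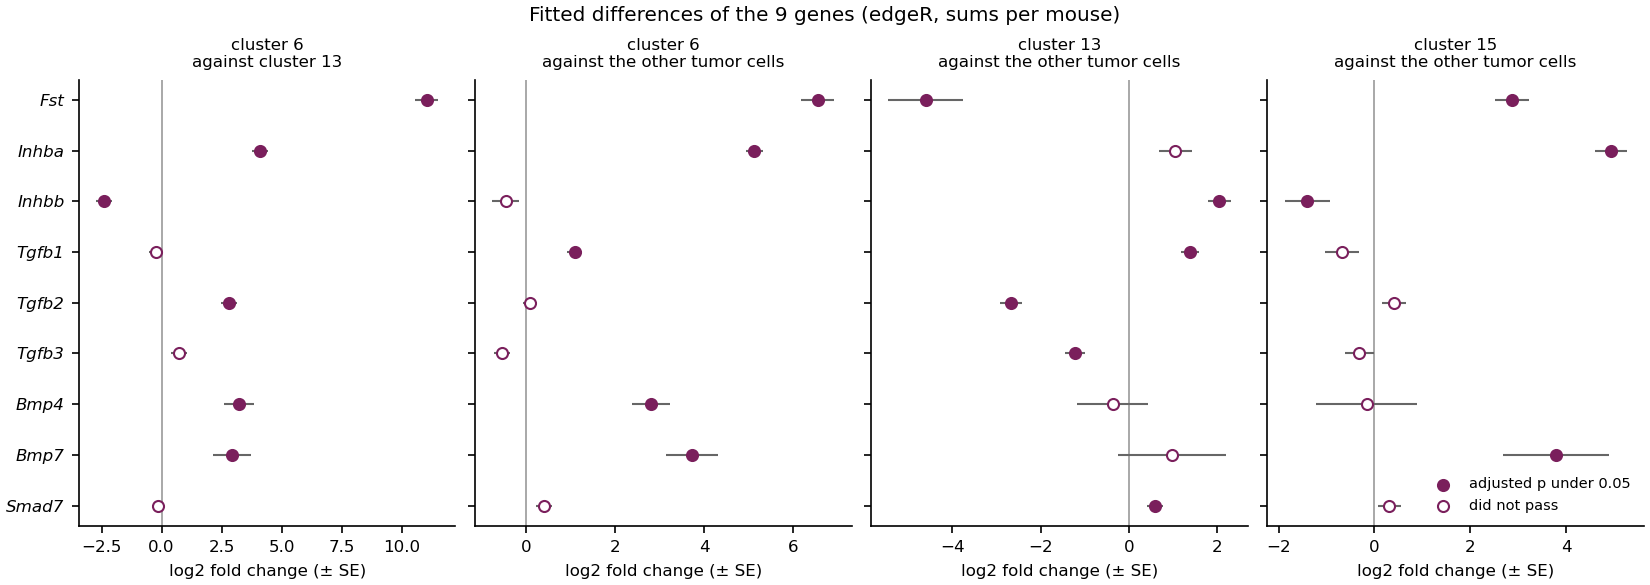
Log2 difference of each member in the 4 comparisons (x axis, edgeR, error bars ± SE of the fit, 2 mice), with filled points for an adjusted p below 0.05 and open points for the rest. Fst and Inhba lie far to the right in both comparisons of cluster 6, at 11.04 and 4.11 against cluster 13 (where the fitted value of Fst rests on 1 UMI in cluster 13 and is no bound) and at 6.56 and 5.13 against the other tumor cells, Inhbb lies to the left against cluster 13 at -2.39, and Tgfb2 lies to the left in cluster 13 at -2.68.

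Within cluster 6, Fst and Inhba were not spread alike. Cells were divided by their keratin UMIs into those with luminal (Krt8 or Krt18) and basal (Krt5 or Krt14) keratins, those with luminal keratins only and those with neither, after the stromal-marker cells had been set apart. Fst was at 1425 CPM (95% counting interval 1353 to 1500) in the 74 cells of mouse 1 with both keratin types and at 1245 CPM (1167 to 1328) in the 68 cells of mouse 2, against 334 CPM (306 to 364) in 103 cells and 388 CPM (330 to 452) in 48 cells with luminal keratins only. Both mice thus had the higher Fst level in the cells with both keratin types. The intervals are exact Poisson intervals and cover counting error only, and since UMIs of 1 cell are not independent they are too narrow for a comparison of cells. In the stromal-marker cells Fst was at 490 and 431 CPM, and without them cluster 6 as a whole was at 733 and 931 CPM.

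Inhba showed no difference in level by keratin type that both mice shared, with 162 and 147 CPM in cells of both keratin types, against 181 and 83.8 CPM in cells with luminal keratins only. With both keratin types the level was lower in mouse 1 and higher in mouse 2. Cells with an Inhba UMI were 29.7% and 17.6% of the cells with both keratin types, against 18.4% and 14.6% with luminal keratins only. It was higher outside these classes. In the stromal-marker cells it was at 821 and 356 CPM, against 255 and 123 CPM in cluster 6 without them. In the 36 cells of mouse 1 with neither keratin type it was at 1413 CPM, from 11 cells with a UMI and at a median depth of 3989 UMIs. Mouse 2 had only 5 such cells, with a median of 739 UMIs and 0 Inhba UMIs, so that level was seen in 1 mouse. Cells with fibroblast markers numbered 42 and 34 in cluster 6 and had Inhba at 848 and 492 CPM and Fst at 506 and 596 CPM. Leaving all stromal-marker cells out of both groups gave an Inhba difference of 4.61 ± 0.21 on the log2 scale against the other tumor cells (edgeR adjusted p = 1.32e-13) and 3.61 ± 0.35 against cluster 13 (edgeR adjusted p = 3.07e-23). The Fst difference from the other tumor cells was then 6.73 ± 0.30 (edgeR adjusted p = 8.56e-14). Against cluster 13, with its single Fst UMI, Fst was again called higher, and no fitted fold is given. Tgfb2 was also higher in the stromal-marker cells, at 287 and 116 CPM, than in cluster 6 without them, at 79.8 and 73.0 CPM.

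**Figure D3:**
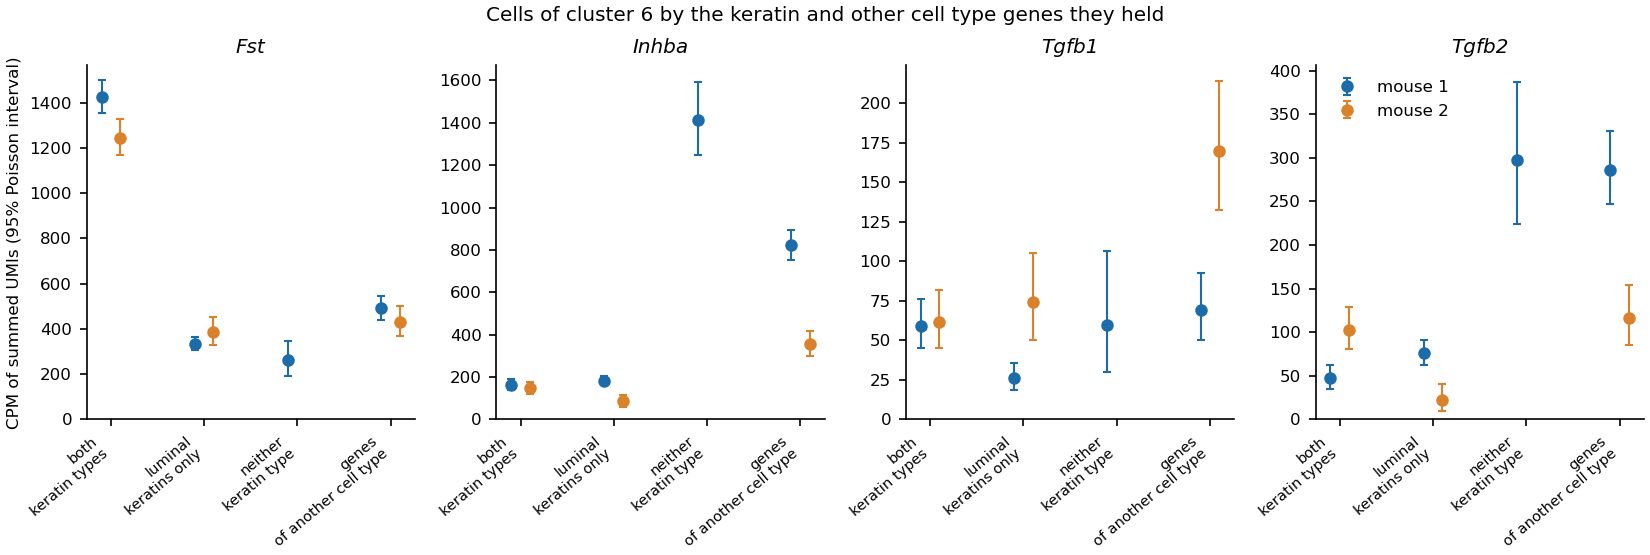
Levels of Fst, Inhba, Tgfb1 and Tgfb2 within cluster 6 (y axis, CPM) in cells with both keratin types, cells with luminal keratins only, cells with neither and stromal-marker cells (marked as holding genes of another cell type), 1 colour per mouse with its 95% Poisson counting interval, and without subsets of under 10 cells. Fst is highest in the cells with both keratin types, at 1425 and 1245 CPM, whereas Inhba reaches 1413 CPM in the cells of mouse 1 with neither keratin type.

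A few cells carried much of the Inhba level. In cluster 6, Inhba UMIs were found in 65 of 260 cells of mouse 1 and 26 of 167 cells of mouse 2, and the 5 cells with the most held 43.8% and 72.3% of them, with 198 and 71 UMIs in the highest cell. In cluster 15 of mouse 2, 139 of 143 Inhba UMIs were in 5 of 17 cells, and in cluster 10 of mouse 1, 97 of 107 were in 5 of 101 cells. The high mouse 1 value of cluster 10 thus came from 5 cells. Fst was less concentrated, with UMIs in 146 of 260 and 92 of 167 cells of cluster 6 and 20.8% and 35.6% of them in the highest 5 cells.

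Detection was compared at equal depth, with each cell thinned to 2000 UMIs and shallower cells left out (15 and 10 cells of cluster 6, 1 and 9 of cluster 13, 0 of cluster 15). Fst was detected in 38.8% of cluster 6 cells in mouse 1 (95 of 245, exact 95% interval 32.6 to 45.2) and 40.8% in mouse 2 (64 of 157, 33.0 to 48.9). It was detected in 6.28% and 11.8% of cluster 15 cells, and in 0 of 72 and 0 of 183 cluster 13 cells, which allows a share of up to 4.17% and 1.64% by the limit of 3 counts (4.99% and 2.0% by the exact interval). Over the 15 clusters other than these, the highest share was 3.41% in mouse 1 and 2.41% in mouse 2. At equal depth, the share in the cells kept from cluster 6 was therefore above that of every other cluster in both mice. In mouse 2 the cluster 15 share rests on 2 of 17 cells, and its exact interval (1.46 to 36.4) overlapped that of cluster 6. Thinning left out 268 of 345 and 425 of 501 cells of cluster 1, 138 of 277 and 156 of 272 cells of cluster 5 and 28 of 83 and 75 of 155 cells of cluster 14, so the shares of these clusters describe their deeper cells only. Unthinned, the median cell of cluster 6 had 12186 UMIs in mouse 1 and 8146 in mouse 2, against 15278 and 11819 for cluster 13. Inhba was detected in 13.1% and 10.2% of cluster 6 cells, 5.24% and 35.3% of cluster 15 cells and 1.39% and 2.19% of cluster 13 cells. Inhbb was detected in 2.04% and 3.18% of cluster 6 cells, against 11.1% and 9.84% of cluster 13 cells. Tgfb2 was detected in 14.7% and 14.6% of cluster 6 cells, against 2.78% and 1.64% of cluster 13 cells, as in the levels. Tgfb1 was detected in 9.39% and 12.7% of cluster 6 cells, against 11.1% and 19.1% of cluster 13 cells, with overlapping intervals within each mouse. Smad7 was detected in 25.7% and 45.9% of cluster 6 cells, against 37.5% and 32.2% of cluster 13 cells, and the 2 mice differed in direction.

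**Figure D4:**
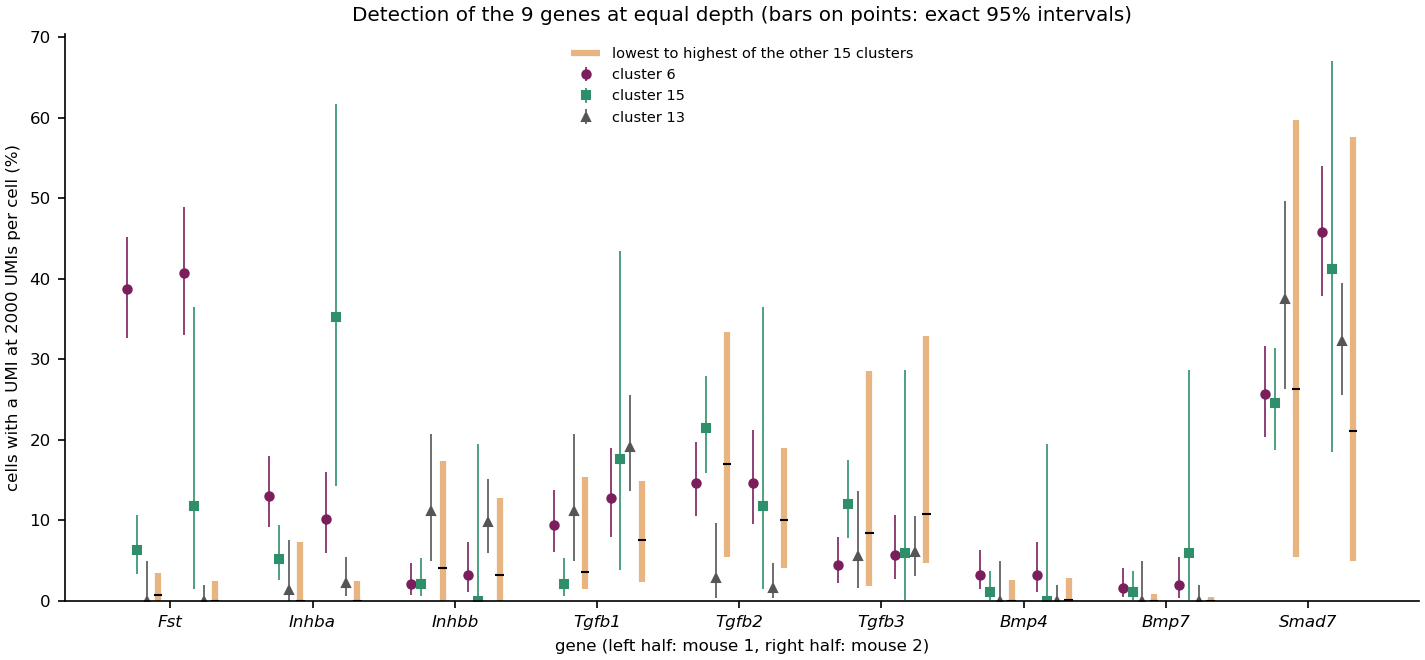
Share of cells with at least 1 UMI of each member after thinning to 2000 UMIs (y axis, percent), for clusters 6, 15 and 13 and, as a bar with a tick at its median, the range over the other 15 clusters, with mouse 1 on the left and mouse 2 on the right of each gene, and exact 95% intervals on the points. Fst is detected in 38.8% and 40.8% of cluster 6 cells and Inhba in 13.1% and 10.2%, and Tgfb3 and Smad7 reach their highest shares in the other clusters, among them cluster 1, of which 77 and 76 cells were deep enough.

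Inhba was detected more often in the cells of cluster 6 with Fst than in those without. Among thinned cluster 6 cells with Fst, Inhba was detected in 19 of 95 (20%, interval 12.5 to 29.5) in mouse 1 and 11 of 64 (17.2%, 8.90 to 28.7) in mouse 2, against 13 of 150 (8.67%, 4.70 to 14.4) and 5 of 93 (5.38%, 1.77 to 12.1) among those without Fst. The share was higher with Fst in both mice, and the intervals within each mouse overlapped. Inhbb was detected in 0 of 95 and 0 of 64 cells with Fst, which allows up to 3.16% and 4.69% by the limit of 3 counts (3.81% and 5.60% by the exact interval), against 5 of 150 and 5 of 93 without. Tgfb2 was detected in 12 of 32 (37.5%) and 4 of 16 (25.0%) cells with Inhba, against 11.3% and 13.5% of those without. These are descriptions over cells of 1 library each, with no test, and cells of the same subset can share several genes.

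Over the 36 sums of 18 clusters in 2 mice, the members with the most similar levels to Fst were Inhba and Bmp4 (Pearson r of log2(CPM + 1) of 0.71 with each) and Bmp7 (0.66), and Inhba and Bmp7 had an r of 0.73. The points share libraries and depths, so these values are descriptions. Bmp7 had 0 UMIs in 8 of the 18 clusters in mouse 1 and in 6 in mouse 2, so its r values rest on few counts. Inhbb, Tgfb1 and Tgfb3 had an r between -0.06 and 0.04 with Fst. Among 7857 genes outside the members, those most like Fst were Cnn1 (r = 0.93), which encodes the smooth muscle protein calponin, Aebp1 (0.87) and Fstl1 (0.86), which encodes a secreted follistatin-like protein. Those most like Inhba were Emp3 (0.85), Gfpt2 (0.85) and the caveolin gene Cav1 (0.81). Inhbb was followed most closely by Runx1 (0.74), a transcription factor of the mammary epithelium, Tgfb1 by Abcg1 (0.82) and Mmp14 (0.82), which encodes a membrane-bound matrix metalloproteinase, and Tgfb3 by Phkg2 (0.87) and Tcf7l2 (0.85). For Tgfb2 the closest was Zfr (0.75), for Bmp4 the metalloproteinase inhibitor Timp3 (0.78), for Bmp7 Fstl1 (0.77) and for Smad7 Fbxo42 (0.85).

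The other genes of the pathway were counted in lists of ligands, receptors, SMADs, antagonists, latency and activation genes, and targets. Of the 10 TGF-beta and activin targets, 8 were higher and 0 lower in cluster 6 than in the other tumor cells, where 18.8% of all genes were called. The same counts were found without the stromal-marker cells. The share of all genes called in the fit without those cells is not given here. Counts without them, in this list and those below, therefore stand without that background. The median log2 difference of these targets was 1.35, and 1.39 without those cells, against -0.06 over all genes. Against cluster 13, where 28.4% of all genes were called, 6 of 9 tested were higher and 1, Bhlhe40, was lower. Tagln encodes the actin-binding protein transgelin and is also in the basal marker list. It was at 1005 and 785 CPM in cluster 6, and at 1059 and 452 CPM there without the stromal-marker cells. Cluster 13 had 1.64 and 0.414 CPM and the other tumor cells 13.2 and 6.76 CPM (cluster 6 against the latter 6.52 ± 0.23 on the log2 scale, edgeR adjusted p = 6.46e-07). Snai2, a transcription factor of basal mammary cells and of epithelial-mesenchymal transition, was at 28.4 and 37.1 CPM in cluster 6, against 0.778 and 0.340 CPM in the other tumor cells (5.85 ± 0.41, edgeR adjusted p = 3.52e-05), and at 31.2 and 44.2 CPM without the stromal-marker cells. Both Tagln and Snai2 kept the call against the other tumor cells with each of the 4 sums left out in turn (edgeR adjusted p 0.00186 to 0.00872).

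BMP targets were divided. In cluster 6, 4 of 7 tested were higher (Id1, Id3, Id4 and Msx1) and 1 lower (Id2) than in the other tumor cells, where 18.8% of all genes were called. Against cluster 13, where 28.4% of all genes were called, 3 of 6 were higher (Id1, Id2 and Id4) and 2 lower (Id3 and Msx2). Id4, an inhibitor of basic helix-loop-helix factors found in basal mammary cells, was at 25.2 and 15.7 CPM in cluster 6, against 0.833 and 1.17 CPM in the other tumor cells (4.34 ± 0.42 on the log2 scale, edgeR adjusted p = 1.95e-04). Id3 was at 31.7 and 80.5 CPM in cluster 6, and at 25.7 and 36.5 CPM there without the stromal-marker cells. It was at 173 and 122 CPM in cluster 13 and at 9.13 and 4.49 CPM in the other tumor cells. It was thus lower in cluster 6 than in cluster 13 (-1.61 ± 0.31, edgeR adjusted p = 1.17e-04) and higher than in the other cells (2.93 ± 0.48, edgeR adjusted p = 0.00326). Msx2, a homeobox gene, was at 2.05 and 5.03 CPM in cluster 6, against 41.0 and 58.7 CPM in cluster 13 (-3.99 ± 0.42, edgeR adjusted p = 2.39e-09). Id4 kept its call against the other tumor cells with each sum left out (edgeR adjusted p 0.00503 to 0.0232). Msx2 was not called against cluster 13 without the cluster 6 sum of mouse 2 (adjusted p = 0.0667). Id3 was not called against cluster 13 by DESeq2 (adjusted p = 0.0561) or by edgeR with the cluster 6 sum of either mouse or the cluster 13 sum of mouse 1 left out (adjusted p 0.0872 to 0.154). It was not called against the other tumor cells without the cluster 6 sum (adjusted p = 0.0904) or the other cells' sum (adjusted p = 0.0777) of mouse 2.

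Extracellular antagonists other than Fst were mostly higher in cluster 6, with 8 of 12 tested higher and 0 lower than in the other tumor cells, where 18.8% of all genes were called, and a median log2 difference of 2.54. Without the stromal-marker cells 6 of 10 tested were higher and the median was 2.01. Fstl1 was at 155 and 369 CPM in cluster 6, against 3.02 and 0.925 CPM in the other tumor cells (6.999 ± 0.626, edgeR adjusted p = 1.32e-04), and at 92.1 and 75.6 CPM without those cells. Dcn, which encodes the proteoglycan decorin and is itself a gene of the fibroblast list, was at 451 and 900 CPM in cluster 6 but at 180 and 35.7 CPM without the stromal-marker cells, and its difference from cluster 13 of 2.78 ± 0.32 (edgeR adjusted p = 1.23e-08) then turned to -0.10. That call against cluster 13 was also lost without the block (edgeR adjusted p = 0.0764), and with the cluster 6 sum of either mouse or the cluster 13 sum of mouse 1 left out (adjusted p 0.0760 to 0.434). Fstl1 kept its call against the other tumor cells with each sum left out (adjusted p 0.00505 to 0.0114). Bmper, a BMP-binding protein, had 15 UMIs in cluster 6 and 0 in the other tumor cells, at least 107-fold higher against a limit of 3 counts over the group. It was at 2.05 and 5.03 CPM in cluster 6, and at 2.18 and 0.849 CPM there without the stromal-marker cells. It was not called without the other cells' sum of mouse 1 or mouse 2.

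Among 12 latency and activation genes, 7 were higher and 0 lower in cluster 6 than in the other tumor cells, with and without the stromal-marker cells, where 18.8% of all genes were called with all cells. Ltbp2, a latent TGF-beta binding protein, was at 116 and 132 CPM in cluster 6, against 5.74 and 3.72 CPM in cluster 13 and 25.9 and 21.2 CPM in the other tumor cells (2.36 ± 0.18 on the log2 scale, edgeR adjusted p = 5.23e-05). It was at 114 and 95.1 CPM without the stromal-marker cells. Fbn1, the microfibril protein fibrillin, and Lrrc32, which holds latent TGF-beta at the cell surface, were mainly in the stromal-marker cells: Fbn1 was at 33.4 and 168 CPM in cluster 6 and at 7.25 and 11.9 CPM without them, and Lrrc32 at 9.97 and 30.2 CPM and at 0.725 and 1.70 CPM. Ltbp4 was at 12.6 and 59.1 CPM in cluster 6, against 0.815 and 1.30 CPM in the other tumor cells (4.75 ± 0.41, edgeR adjusted p = 1.01e-04). Without the stromal-marker cells it was at 9.79 and 12.7 CPM in cluster 6, so most of its mouse 2 level came with those cells. Its call was lost without the other cells' sum of mouse 1. Ltbp2 kept its call with each sum left out (adjusted p 0.00913 to 0.0257). Against cluster 13, Itgb6, a subunit of an integrin that activates latent TGF-beta, was the 1 of 12 that was lower, where 6 were higher and 28.4% of all genes were called.

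Receptors and SMADs moved less. In cluster 6, 7 of 12 receptors tested were higher and 0 lower than in the other tumor cells, where 18.8% of all genes were called, with a median of 0.66 on the log2 scale, and 4 were higher without the stromal-marker cells. The co-receptor Tgfbr3 was at 59.2 and 64.1 CPM in cluster 6, against 3.28 and 1.65 CPM in cluster 13 and 20.3 and 12.7 CPM in the other tumor cells, higher by 4.65 ± 0.46 than in cluster 13 (edgeR adjusted p = 5.11e-10) and by 1.89 ± 0.22 than in the other cells (edgeR adjusted p = 6.27e-04). Tgfbr1, the type I TGF-beta receptor, was at 22.3 and 37.1 CPM in cluster 6, against 13.9 and 8.69 CPM in cluster 13 (1.32 ± 0.40, edgeR adjusted p = 0.0118). Acvr1, a type I receptor for BMPs, was at 71.5 and 95.6 CPM in cluster 6, against 37.8 and 39.4 CPM in the other tumor cells (1.06 ± 0.17, edgeR adjusted p = 0.00302). Eng, an endothelial co-receptor, was at 8.21 and 45.9 CPM in cluster 6 and at 1.81 and 1.70 CPM without the stromal-marker cells, where it was no longer called against the other tumor cells. Of the SMADs and cytoplasmic regulators, 4 of 10 were higher (Ski, Smad1, Smad3 and Smad5) and 0 lower, with a median of 0.35. The co-repressor Ski was at 106 and 101 CPM in cluster 6, against 58.0 and 53.4 CPM in the other tumor cells (0.86 ± 0.16, edgeR adjusted p = 0.00644), and Smad3, the activin and TGF-beta transducer, was at 53.1 and 57.2 CPM against 27.7 and 37.5 CPM (0.75 ± 0.19, edgeR adjusted p = 0.0265). These smaller differences depended on the fit. With each of the 4 sums left out in turn, the calls of Tgfbr1 against cluster 13 (edgeR adjusted p 0.0924 to 0.326) and of Acvr1 (0.0558 to 0.228), Ski (0.152 to 0.377) and Smad3 (0.254 to 0.545) against the other tumor cells were lost. DESeq2 did not call Tgfbr1 (adjusted p = 0.544) or Smad3 (adjusted p = 0.0896). EdgeR without the block did not call Tgfbr1 (adjusted p = 0.0598), Ski (adjusted p = 0.0695) or Smad3 (adjusted p = 0.162). With thinned cells, Smad3 was not called (adjusted p = 0.125). Tgfbr3 was not called against cluster 13 without the cluster 6 sum of mouse 2 (adjusted p = 0.0646). Against the other tumor cells its call was kept only without the other cells' sum of mouse 1 (adjusted p 0.0547 to 0.0879 for the rest). Eng was not called without the other cells' sum of mouse 1 (adjusted p = 0.0557).

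Of the other ligands, 9 of 19 could be tested against the other tumor cells, with 2 higher and 1 lower in cluster 6, where 18.8% of all genes were called. Bmp2, a BMP close in sequence to Bmp4, was at 47.2 and 11.3 CPM in cluster 6, against 0 and 4.14 CPM in cluster 13 and 1.48 and 0.850 CPM in the other tumor cells (4.47 ± 0.39 on the log2 scale, edgeR adjusted p = 1.23e-04), and at 28.6 and 10.2 CPM without the stromal-marker cells. Gdf15, a stress-induced member of the family, was at 30.2 and 18.2 CPM in cluster 6, against 14.2 and 6.12 CPM in the other tumor cells (1.27 ± 0.25, edgeR adjusted p = 0.00843), and was not called without those cells. Gdf5, a ligand of joint development, was lower in cluster 6, at 0.880 and 8.80 CPM, against 13.6 and 51.0 CPM in the other tumor cells (-3.02 ± 0.34, edgeR adjusted p = 5.24e-04). Bmp2 was not called without the other cells' sum of mouse 1 (adjusted p = 0.0624) or mouse 2 (adjusted p = 0.0527). The calls of Gdf15 (adjusted p 0.117 to 0.591) and Gdf5 (adjusted p 0.0935 to 0.494) were lost with each of the 4 sums left out in turn and without the block (adjusted p = 0.235 for Gdf15 and 0.173 for Gdf5). That of Gdf15 was also lost with thinned cells (adjusted p = 0.757).

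In cluster 13 against the other tumor cells, 24 of the 61 genes of the 7 lists that could be tested were called, 12 higher and 12 lower, where 22% of all genes were called. Of the latency and activation genes, 4 of 11 were higher (Itgav, Itgb6, Ltbp1 and Mmp14) and 3 lower (Itgb8, Ltbp2 and Thbs1). Of the antagonists, 3 of 6 were higher (Dcn, Fstl3 and Nbl1) and 1 lower (Bambi, a pseudoreceptor that inhibits TGF-beta and BMP signals). The BMP targets Id3 and Msx2 were higher and Hey1 and Id2 lower, of 6 tested. Of 9 TGF-beta and activin targets, 1 was higher (Bhlhe40) and 3 lower (Ccn2, Ldlrad4 and Tagln). Receptors gave 1 call in each direction of 12 (Eng higher, Tgfbr3 lower). So did the 10 SMADs and cytoplasmic regulators (Smad3 higher, Smurf2 lower). Of 7 other ligands, Gdf5 was lower. In cluster 15 against the other tumor cells, 12 of 62 were called, 7 higher and 5 lower, where 7.58% of all genes were called. Higher were Bmp2, Tgfbr3, Smad3, Fstl1, Nbl1 and 2 of 9 TGF-beta and activin targets, Tagln among them. Lower were Gdf5, Gdf15, Skil, Cdkn2b and Hey1.

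**Figure D5:**
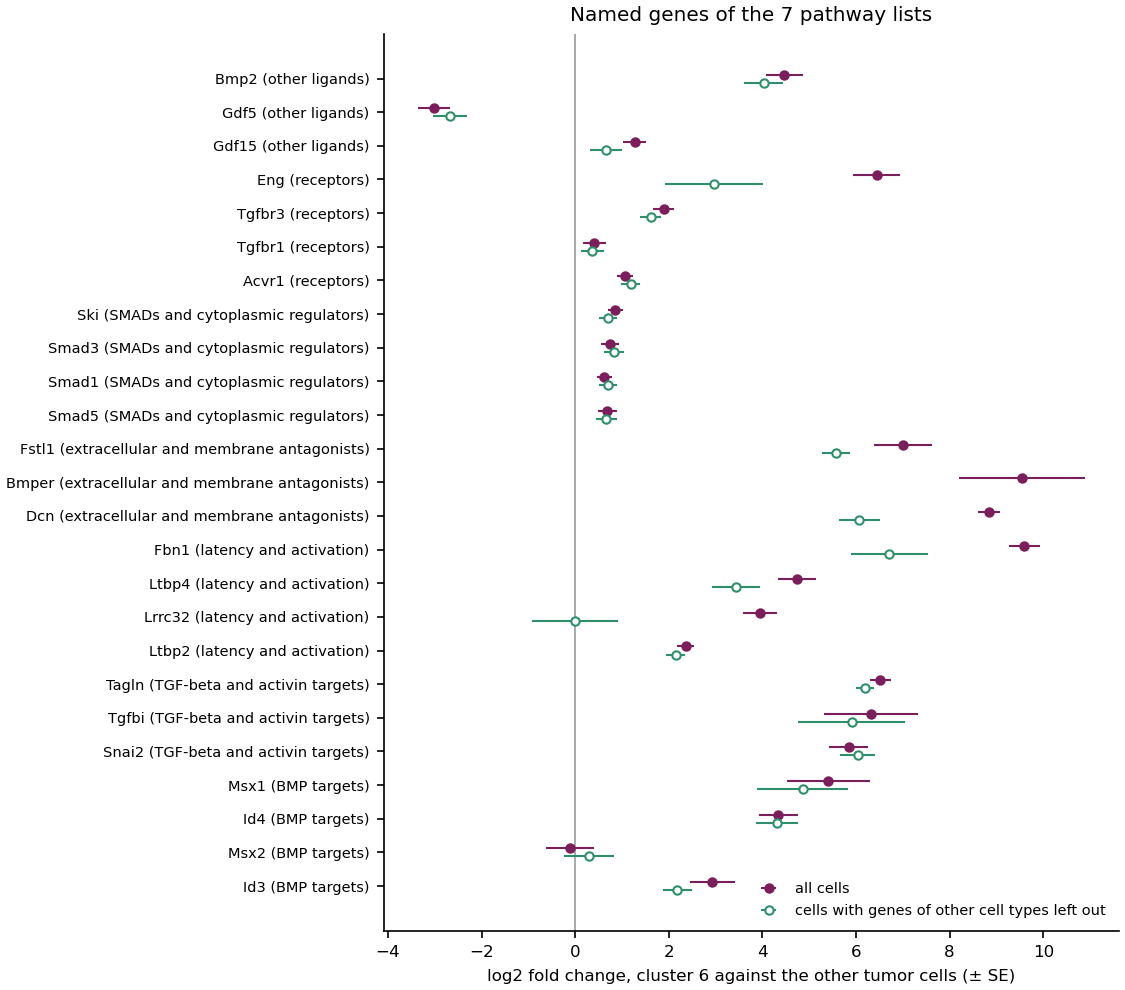
Log2 difference of the named pathway genes in cluster 6 against the other tumor cells (x axis, edgeR, error bars ± SE of the fit, 2 mice), with all cells as filled points and without the stromal-marker cells as open points, grouped by list. Snai2 and Id4 stay in place without those cells, as does the fitted point of Tagln, whose level in mouse 2 goes from 785 to 452 CPM. Eng, Dcn, Fbn1, Fstl1 and Lrrc32 move to the left. Bmper could not be tested then.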

How the data were processed

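Single-cell RNA of sorted tumor cells from 2 mice was captured with a droplet 3' kit (1 library each). The matrices that the authors deposited give UMI counts for 32285 genes (Cell Ranger 6.0.1, genome build mm10) as whole numbers, without normalization. The authors' deposited cell annotation gives the cluster; for it they removed doublets called by scDblFinder and cells of low quality, normalized with sctransform, integrated the mice and removed lymphoid and myeloid clusters (Seurat 4.0.3 in the submitters' processing notes). Its scores and the barcodes without a cluster (2346 and 2208) were in no comparison, and no cell was removed here. Annotated sums held 58629906 and 56972644 UMIs.

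The members, the pathway and marker lists and the comparisons were chosen with earlier results of these data known. Counts were summed per mouse and cluster, since cells of 1 mouse are not replicates, and given as CPM of those sums, which weighs deep cells more. The test was edgeR's quasi-likelihood fit (version 4.0.16, in R 4.3.3 with limma 3.58.1) on genes kept by filterByExpr, with TMM factors, a mouse block, Benjamini-Hochberg adjustment and a threshold of 0.05, on 4 sums with 1 residual degree of freedom. The biological coefficient of variation was 0.176 to 0.238. The pairing comes from the animal; the differences between the mice in the 2 groups of a comparison had a Pearson r of 0.139 to 0.394 across genes. Standard errors are the log2 difference over the square root of F. They rest on variation that the fit shares over genes and are not the spread between the 2 mice. The fit was tested on simulated data.

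Alternatives were DESeq2 1.42.0, other size factors, no filter on low counts, no block, cells thinned to 2000 UMIs (seed 1), cells with genes of other cell types left out, and each sum left out, which was fitted without the block and assumes that the lone sum varies like the others. Intervals are exact (Clopper-Pearson or Poisson, 95%) and cover counting error only. Ratios of counts pool the UMIs and depth of both mice, without the mouse block. The edgeR p beside such a ratio comes from the blocked fit, not from the ratio. Named pathway genes were up to 4 per list past the threshold in either comparison of cluster 6, with the largest change and the same sign in both mice. Some of these genes are not reported here. Python 3.11.15 with NumPy 2.4.6, SciPy 1.17.1, pandas 2.3.3 and matplotlib 3.10.9 was used.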

Additional observations from a re-analysis of the deposited data

Results flagged for a closer look

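Barcodes to which the annotation gives no cluster, 2346 in mouse 1 and 2208 in mouse 2, are outside every comparison. Mitochondrial genes made up 56.7% and 38.6% of their UMIs, against 6.55% and 6.01% in annotated cells. The members were counted in them above the limit that a count of 0 allows, 0.665 CPM in mouse 1 and 0.658 CPM in mouse 2, except Bmp4 in mouse 2 and Bmp7 in mouse 1. Fst was at 4.66 and 1.32 CPM, against 51.0 and 26.8 CPM in annotated cells. Inhba was at 1.55 and 10.97 CPM, against 30.5 and 10.6 CPM. Inhbb was at 19.5 and 8.78 CPM, against 21.7 and 17.4 CPM. Tgfb1 was at 26.4 and 109 CPM, against 26.0 and 40.8 CPM, so that it was above the annotated cells in mouse 2. Tgfb2 was at 35.5 and 26.6 CPM, against 110 and 73.9 CPM, and Tgfb3 at 58.8 and 69.6 CPM, against 45.9 and 61.1 CPM. Bmp4 was at 2.44 CPM in mouse 1, against 3.92 CPM, and Bmp7 at 0.878 CPM in mouse 2, against 0.825 CPM. Smad7 was at 149 and 160 CPM, against 171 and 174 CPM. By the rule used for stromal-marker cells, 25 of these barcodes in mouse 1 and 169 in mouse 2 held genes of another cell type. Cells that the authors removed, the lymphoid and myeloid clusters among them, also have no cluster. Whether these UMIs come from such cells, from other cells or from free RNA was not tested.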

How the results depend on the processing

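With 2 mice each test had 1 residual degree of freedom, and counts of called genes moved with the method. DESeq2 called 981 genes in cluster 6 against cluster 13, 1743 in cluster 13 and 487 in cluster 15 against the other tumor cells, where edgeR called 2782, 3077 and 1039. Without the replicate block, edgeR called 967 genes in cluster 6, 1409 in cluster 13 and 90 in cluster 15 against the other tumor cells, where the fit with the block called 2693, 3077 and 1039. With cells thinned to 2000 UMIs, 1080 genes were called in cluster 6 against cluster 13, and 1679, 1089 and 238 in clusters 6, 13 and 15 against the other tumor cells. Leaving out 1 sum gave 0 to 1387, 525 to 973, 242 to 768 and 0 to 637 called genes in the 4 comparisons, in that order; without the sum of mouse 2 of cluster 15 none was called and 1827 had an unadjusted p below 0.05. Since these fits have fewer sums and no block, a lost call does not show a smaller effect.

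Of the member results, 81 of 140 kept direction and call with a sum left out, 47 lost the call and 12 turned, and under the other alternatives 186 of 210 kept both, 16 lost and 4 gained the call and 4 turned. Results that turned were Tgfb1 (-0.76 to 0.19 with a sum left out) and Smad7 (-0.41 to 0.082) in cluster 6 against cluster 13, Tgfb2 in cluster 6 against the other tumor cells (-0.28 without stromal-marker cells, -0.28 to 0.42 with a sum left out), Bmp4 (-1.36 to 0.21) and Bmp7 (-7.37 to 1.61) in cluster 13, and in cluster 15 Bmp4 (0.17 by DESeq2, 0.12 without the replicate block, -0.45 to 1.08) and Smad7 (-0.084 thinned, -0.045 to 0.69). None of these was called. Of the pathway genes, Eng (-1.77 to 0.66) and Smad5 (-0.19 thinned, -0.0082 without stromal-marker cells, -0.16 to 0.22) turned against cluster 13, Msx2 against the other tumor cells (0.29 without stromal-marker cells, -0.74 to 0.46), and Dcn, which was called, against cluster 13 (-0.10 without stromal-marker cells). The cause was not tested. Of the named pathway results, 88 of 192 lost the call with a sum left out. By setting, 11 of 49 lost it by DESeq2, 12 of 49 without the replicate block, 6 of 36 with thinned cells, 5 of 46 without stromal-marker cells and 2 of 49 with no filter on low counts. Bmp4 and Bmp7 are limited by depth.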
